A study of Mus musculus with 27 samples.

Results

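Messenger RNA levels of 8 genes of the FoxO, muscle atrophy and autophagy programme were followed in the left ventricle of mice with a constitutively active PI3K alpha and of WT mice, after pressure overload or a sham operation. The genes are a named list, drawn up with earlier results of these data known: the transcription factors Foxo1 and Foxo3, the ubiquitin ligases Fbxo32 and Trim63, the mitophagy receptor Bnip3, the ubiquitin-like autophagy proteins Map1lc3b and Gabarapl1, and the cargo receptor Sqstm1. All 8 of the 8 listed genes were found among the 8987 genes of the mRNA table. The hearts came from adult FVB mice and were collected on day 7 after the operation. Poly-A selected mRNA was sequenced from 11 hearts in 4 groups: caPI3Kalpha TAC (2 hearts, animals 11 and 211), caPI3Kalpha sham (2 hearts, animals 5 and 8), WT TAC (3 hearts, animals 1, 17 and 19) and WT sham (4 hearts, animals 6, 7, 13 and 15). TAC is transverse aortic constriction, which narrows the aorta and makes the left ventricle pump against a higher pressure. The caPI3Kalpha mice, whose genotype is labelled as a PI3Kalpha mutant, carry that active form of the kinase. The published line drives it from the alpha myosin heavy chain promoter, which is active in cardiomyocytes, while the labels name no promoter. The library titled WT sham 15 carries another animal's number in its source name, and its title was followed. A further 16 small RNA libraries of the series were not used here.

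FoxO factors are transcription factors that the PI3K and Akt pathway holds in check: Akt phosphorylates them and they then leave the nucleus. In skeletal and heart muscle, active FoxO raises the transcription of atrogenes, among them the muscle ubiquitin ligases atrogin-1 and MuRF1, and of autophagy genes. Autophagy encloses cargo in a membrane coated with LC3 and GABARAP proteins, and cargo receptors such as p62 link ubiquitinated cargo to that coat before the vesicle fuses with the lysosome. FoxO activity itself is set mainly by phosphorylation and location, which mRNA levels do not show.

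The transgene was visible in every heart that should carry it. Pik3ca, which encodes the catalytic subunit of PI3K alpha, stood at 110.5 and 101.3 RPKM in caPI3Kalpha TAC hearts and at 115.4 and 195.0 RPKM in caPI3Kalpha sham hearts, against 5.6, 8.1 and 8.9 RPKM in WT TAC hearts and 5.3, 8.5, 7.7 and 7.0 RPKM in WT sham hearts. RPKM scales reads by transcript length and by the mapped reads of the library, so levels of different genes can be compared. The ventricular cardiomyocyte marker Myl2 lay between 2579.6 and 4193.6 RPKM in all 11 hearts. The atrial markers Myl7, Sln and Myl4 were highest in caPI3Kalpha TAC heart 11, at 20.8, 13.7 and 20.4 RPKM. The next highest heart, WT sham 15, had 5.7, 1.7 and 4.6 RPKM. The remaining atrial marker, Nppa, went the other way. It was at 426.3 RPKM in heart 11, below caPI3Kalpha TAC heart 211 at 650.9 RPKM and WT TAC hearts at 631.2 to 1219.1 RPKM. The summed RPKM of the tabled genes ran from 202916.4 to 212396.3 per library, and the number of reads behind the values is unknown. The median gene stood at 7.5 to 7.7 RPKM in the WT TAC libraries and at 6.4 to 6.8 RPKM in the libraries of the other groups.

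The libraries also fell into 2 sets that the labels do not name. The first principal component of the genes outside the lists used here held 51.9% of the variance and placed the 4 caPI3Kalpha libraries with WT sham 6 and WT TAC 1 in a first set of 6, and the remaining 5 WT libraries in a second set. At 32.6% of the 8987 genes the sets did not overlap. What separates them was not tested. Since every caPI3Kalpha library is in the first set, genotype and library set can be separated through WT sham 6 and WT TAC 1 alone, and many values are therefore also given with a term for library set. In the first set alone each WT group is 1 library, assumed to vary like the caPI3Kalpha groups, and 44 of the 8987 genes (0.490%) were called there in WT TAC relative to WT sham, so a missed call in that set says little.

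The atrophy and autophagy genes were expressed at moderate to high levels, and the FoxO factors lower. Over the 11 libraries, Sqstm1 averaged 115 RPKM, above 97.3% of the tabled genes, and Trim63 55.9 RPKM, above 94.5%. Map1lc3b at 47.2, Bnip3 at 43.8, Gabarapl1 at 33.2 and Fbxo32 at 26.6 RPKM followed. Foxo3 at 9.45 and Foxo1 at 5.95 RPKM came last, and Foxo1 stood above 43.7% of the genes. Map1lc3b was the steadiest, with its highest library 1.16 times its lowest, and Bnip3 varied most, with its highest library 3.32 times its lowest.

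**Figure D1:**
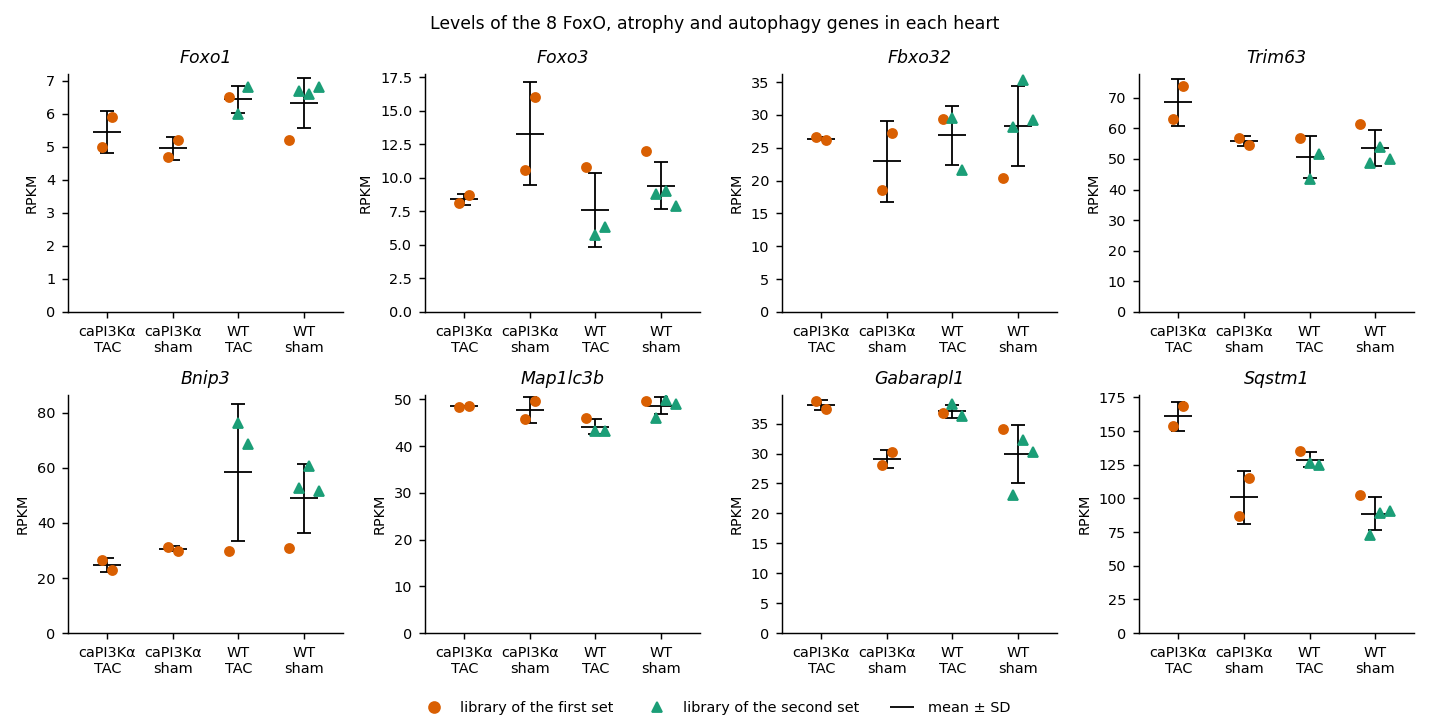
Level of each of the 8 genes in every heart (RPKM, linear axis from 0) by group. Points are hearts, coloured by library set, and the bars give the mean ± SD of the group. Sqstm1 lies at 153.5 and 168.6 RPKM in caPI3Kalpha TAC hearts and at 124.9 to 135.1 RPKM in WT TAC hearts, above both sham groups, while Bnip3 follows the library set, with 23.0 to 31.4 RPKM in the first set and 51.5 to 76.4 RPKM in the second.

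Sqstm1 alone of the 8 genes passed the threshold in any of the 5 comparisons of the 2 by 2 design. It rose in WT TAC hearts relative to WT sham hearts, a comparison in which limma called 1 of the 8 genes higher and 0 lower, with 2 at an unadjusted p under 0.05, and in which 16.5% of all genes were called. A gene counted as called at an adjusted p under 0.05, from limma's moderated test on log2(RPKM + 0.5) with Benjamini-Hochberg adjustment over all 8987 genes. The p-values measure the spread between hearts within groups. Both WT groups mix the 2 library sets, so without a set term that spread also holds any difference between the sets. The 2 TAC comparisons and the 2 genotype comparisons share groups. The median log2 difference of the 8 genes in WT TAC hearts was -0.02, beside 0.17 for all genes. Sqstm1 and Gabarapl1 did not overlap between the WT groups, 2 of the 8 genes beside 23.6% of all genes. Log2 differences are given with their standard error throughout.

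In caPI3Kalpha TAC hearts relative to caPI3Kalpha sham hearts limma called 0 of the 8 genes, with 2 at an unadjusted p under 0.05, and 0.00% of all genes, of which 454 had an unadjusted p under 0.05. With 2 hearts in each group, 5 of the 8 genes did not overlap between the groups, 3 higher and 2 lower in caPI3Kalpha TAC, beside 42.4% of all genes. In caPI3Kalpha sham hearts relative to WT sham hearts limma called 0 of the 8, with 1 at an unadjusted p under 0.05, and 0.0111% of all genes, which was Pik3ca alone. There 0 of the 8 did not overlap, beside 19.6% of all genes. In caPI3Kalpha TAC hearts relative to WT TAC hearts it called 0 of the 8, with 2 at an unadjusted p under 0.05, while 6.52% of all genes were called, 67 higher and 519 lower. There 5 of the 8 did not overlap, 3 higher and 2 lower, beside 47.7% of all genes. The interaction of genotype and operation asks whether the TAC response differed between genotypes. It was called for 0 of the 8 genes, 0 at an unadjusted p under 0.05, and for 0.312% of all genes, 28 genes that were all lower.

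**Figure D2:**
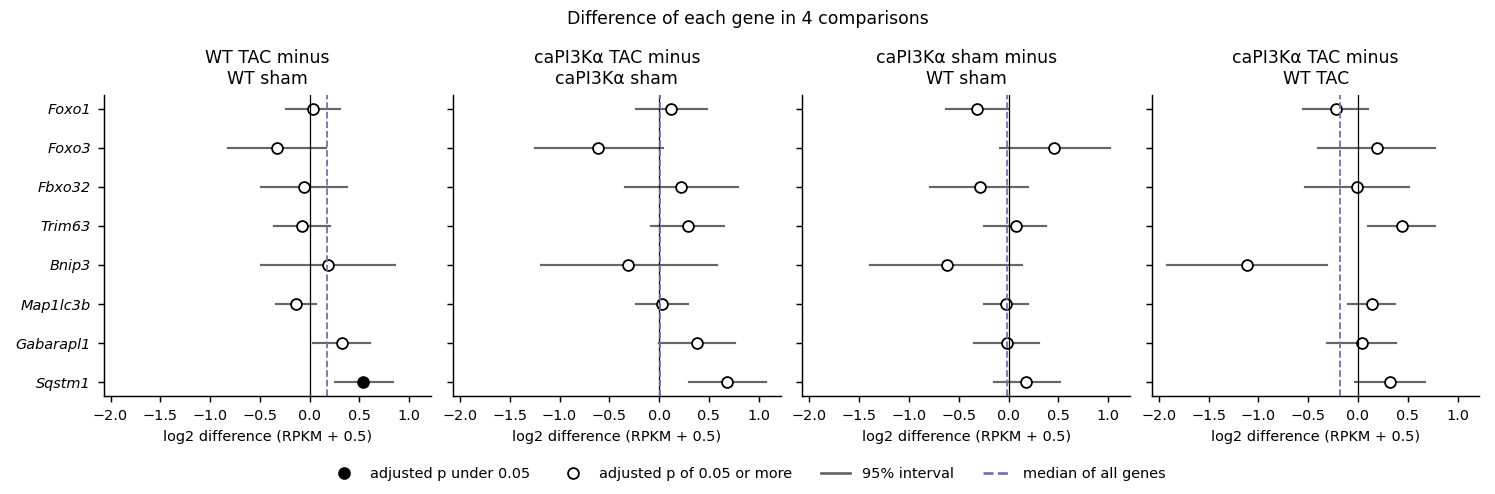
Difference of each gene on the log2(RPKM + 0.5) scale in 4 comparisons, with 95% intervals from limma. A filled point has an adjusted p under 0.05, and the dashed line is the median of all 8987 genes. Sqstm1 in WT TAC minus WT sham, at 0.54, is the one filled point, and the widest intervals belong to Bnip3 and Foxo3.

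Foxo1 and Foxo3 are the FoxO factors best studied in heart muscle. Foxo1 was at 5.0 and 5.9 RPKM in caPI3Kalpha TAC hearts 11 and 211, 4.7 and 5.2 RPKM in caPI3Kalpha sham hearts 5 and 8, 6.5, 6.0 and 6.8 RPKM in WT TAC hearts 1, 17 and 19, and 5.2, 6.7, 6.6 and 6.8 RPKM in WT sham hearts 6, 7, 13 and 15. The same order of hearts is kept below. Every caPI3Kalpha TAC heart lay below every WT TAC heart, and the caPI3Kalpha sham hearts lay below 3 of the 4 WT sham hearts and reached the fourth, animal 6. The log2 difference was -0.22 ± 0.15 (SE, adjusted p = 0.295, limma) in caPI3Kalpha TAC relative to WT TAC and -0.32 ± 0.14 (adjusted p = 0.326, limma) in caPI3Kalpha sham relative to WT sham. With a term for library set these were -0.11 ± 0.14 and -0.19 ± 0.14 (limma adjusted p = 0.641 and 0.999). The sham difference passed the threshold without WT sham 6, the sole WT sham heart of the first set, at -0.40 (limma adjusted p = 0.0459, beside 0.0459 to 1.00 over its 19 alternatives). In WT TAC relative to WT sham, Foxo1 differed by 0.03 ± 0.12 log2, with a 95% interval of -0.24 to 0.30.

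Foxo3 was at 8.1 and 8.7 RPKM in caPI3Kalpha TAC hearts, 10.6 and 16.0 RPKM in caPI3Kalpha sham hearts, 10.8, 5.7 and 6.3 RPKM in WT TAC hearts and 12.0, 8.8, 9.0 and 7.9 RPKM in WT sham hearts. Both TAC groups averaged below their sham groups, 8.40 ± 0.424 against 13.3 ± 3.82 RPKM in caPI3Kalpha hearts (SD, n = 2 each) and 7.60 ± 2.79 (SD, n = 3) against 9.43 ± 1.78 RPKM (SD, n = 4) in WT hearts. The caPI3Kalpha groups did not overlap, while the WT groups did, through WT TAC 1. The log2 difference was -0.61 ± 0.29 in caPI3Kalpha hearts (limma adjusted p = 1.00) and -0.33 ± 0.22 in WT hearts (limma adjusted p = 0.344). WT TAC 1 and WT sham 6, the WT hearts of the first library set, were the highest of their groups. The WT difference passed the threshold with a term for library set, at -0.38 (limma adjusted p = 0.0336), in the second set alone, at -0.48 (limma adjusted p = 0.0174), and without WT TAC 1, at -0.60 (limma adjusted p = 0.0473). Without WT TAC 17 it was -0.16 and without WT sham 6 -0.21 (limma adjusted p = 0.729 and 0.509), and over its 20 alternatives the adjusted p ran from 0.0174 to 0.788. The caPI3Kalpha difference was -0.32 without sham heart 8 and -0.89 without sham heart 5. In caPI3Kalpha sham relative to WT sham, Foxo3 was 0.46 ± 0.25 log2 higher without the library set term and 0.00 ± 0.18 with it (limma adjusted p = 0.328 and 0.999).

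The muscle ubiquitin ligases Fbxo32 and Trim63 showed no called difference, while Fbxo40, another gene of that class, was called and is described below. Fbxo32, which encodes atrogin-1, the F-box protein that brings substrates to an SCF ligase, was at 26.6 and 26.2 RPKM in caPI3Kalpha TAC hearts, 18.6 and 27.3 RPKM in caPI3Kalpha sham hearts, 29.4, 29.6 and 21.6 RPKM in WT TAC hearts and 20.4, 28.2, 35.3 and 29.2 RPKM in WT sham hearts. All pairs of groups overlapped. Its log2 differences were 0.22 ± 0.26 for caPI3Kalpha TAC relative to caPI3Kalpha sham, -0.29 ± 0.22 for caPI3Kalpha sham relative to WT sham, -0.01 ± 0.24 for caPI3Kalpha TAC relative to WT TAC and -0.06 ± 0.20 for WT TAC relative to WT sham (limma adjusted p of 0.413 to 1.00). With a term for library set the caPI3Kalpha sham difference from WT sham was -0.14 ± 0.25 and the caPI3Kalpha TAC difference from WT TAC 0.13 ± 0.25 (limma adjusted p = 0.999 and 0.775). The 95% interval of the WT TAC difference from WT sham ran from -0.49 to 0.37.

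Trim63, which encodes MuRF1, the RING ligase of the sarcomere whose substrates include myosin heavy chain, was at 63.1 and 73.9 RPKM in caPI3Kalpha TAC hearts, 57.0 and 54.7 RPKM in caPI3Kalpha sham hearts, 57.0, 43.5 and 51.5 RPKM in WT TAC hearts and 61.6, 48.6, 53.9 and 50.0 RPKM in WT sham hearts. The 2 caPI3Kalpha TAC hearts were the highest of the 11. The log2 difference was 0.44 ± 0.15 in caPI3Kalpha TAC relative to WT TAC (limma adjusted p = 0.0884), and in caPI3Kalpha TAC relative to caPI3Kalpha sham 0.29 ± 0.17 (limma adjusted p = 1.00). Without WT TAC 1 the difference from WT TAC was 0.52 (limma adjusted p = 0.0258). WT TAC 1 is the sole WT TAC heart of the first library set, so without it genotype and library set cannot be told apart here. Without WT sham 6, which changes the spread alone, the difference was 0.44 (limma adjusted p = 0.0434), beside 0.0258 to 0.390 over its 19 alternatives. Trim63 did not overlap between the library sets, at 61.2 ± 6.97 RPKM in the first set (SD, n = 6; 54.7 to 73.9) and 49.5 ± 3.89 RPKM in the second (SD, n = 5; 43.5 to 53.9). With a term for library set the difference from WT TAC was 0.25 ± 0.11 (limma adjusted p = 0.168). In WT TAC relative to WT sham it was -0.08 ± 0.13, with a 95% interval of -0.36 to 0.20. Trim63 is a described FoxO target, and its promoter is shown because, of the 7 promoters found for the 8 genes, it alone held the FoxO core motif GTAAACA on either strand. The 250 bases before its start, at chr4:134314870-134315119 on the plus strand of GRCm38.p6 (RefSeq), read as follows, with the match to the reverse complement of that core, TGTTTAC, in capitals at bases 57 to 63.
Trim63: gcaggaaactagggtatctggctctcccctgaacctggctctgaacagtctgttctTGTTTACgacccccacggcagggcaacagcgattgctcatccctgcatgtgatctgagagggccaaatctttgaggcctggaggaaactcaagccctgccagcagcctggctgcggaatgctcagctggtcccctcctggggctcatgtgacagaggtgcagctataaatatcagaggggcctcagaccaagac
The match ends 188 bases before the start. GTAAACA was present in 1040 of 32851 mouse promoters of this length (3.17%), on either strand. Only these exact letters were searched, and variants of the core were not counted. ATAAACA, which has another first base, stands in the Gabarapl1 promoter. The Trim63 promoter also had few CpG pairs, with an observed to expected CpG ratio of 0.198 beside a median of 0.373 over all promoters and 0.562 to 1.04 in the other 6 members matched.

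Bnip3, the outer membrane mitophagy receptor and a target of both FoxO3 and the hypoxia factor HIF-1, varied with the library set. It was at 26.5 and 23.0 RPKM in caPI3Kalpha TAC hearts, 31.4 and 30.0 RPKM in caPI3Kalpha sham hearts, 29.8, 76.4 and 68.8 RPKM in WT TAC hearts and 31.0, 52.6, 60.7 and 51.5 RPKM in WT sham hearts. WT TAC 1 and WT sham 6 were at the level of the caPI3Kalpha sham hearts, and all 5 other WT hearts were at 51.5 to 76.4 RPKM. The first set averaged 28.6 ± 3.25 RPKM (SD, n = 6) and the second 62.0 ± 10.7 RPKM (SD, n = 5), a ratio of 0.462, with no overlap. Relative to WT TAC, the log2 difference of caPI3Kalpha TAC was -1.11 ± 0.37 (limma adjusted p = 0.0789), and -0.43 ± 0.14 with a term for library set (limma adjusted p = 0.0814). It was -1.54 without WT TAC 1 (limma adjusted p = 0.00729) and -1.11 without WT sham 6 (limma adjusted p = 0.0325), within a range of 0.00729 to 0.312 over 19 alternatives. In caPI3Kalpha sham relative to WT sham it was -0.62 ± 0.35 (limma adjusted p = 0.329), and 0.15 ± 0.14 with the term (limma adjusted p = 0.999). Genotype and library set cannot be told apart for Bnip3 beyond what WT TAC 1 and WT sham 6 give.
In caPI3Kalpha hearts Bnip3 was lower in both TAC hearts than in both sham hearts, with a log2 difference of -0.31 ± 0.40 (limma adjusted p = 1.00). In WT hearts the second set alone gave 0.40 for TAC relative to sham (limma adjusted p = 0.0154) and all hearts gave 0.18 ± 0.31 (limma adjusted p = 0.734), or 0.27 ± 0.10 with a term for library set (limma adjusted p = 0.0532), within 0.0154 to 0.991 over 20 alternatives. Its promoter is shown because the hypoxia factor core ACGTG, searched on both strands, was found in it and in no other of the 7 promoters. The 250 bases lie at chr7:138909507-138909756 on the minus strand of GRCm38.p6 (RefSeq).
Bnip3: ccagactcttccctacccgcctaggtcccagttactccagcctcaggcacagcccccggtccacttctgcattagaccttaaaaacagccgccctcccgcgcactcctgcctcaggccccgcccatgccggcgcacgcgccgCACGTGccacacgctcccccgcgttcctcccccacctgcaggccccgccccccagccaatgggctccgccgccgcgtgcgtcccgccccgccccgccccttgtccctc
The capitals mark CACGTG at bases 143 to 148, which ends 103 bases before the start and holds the ACGTG core on both strands. CACGTG was present in 6.02% and ACGTG in 16.6% of the 32851 promoters.

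Map1lc3b and Gabarapl1 encode members of the ubiquitin-like families that are joined to the lipid of the autophagosome membrane. Map1lc3b, which encodes LC3B, was at 48.4 and 48.6 RPKM in caPI3Kalpha TAC hearts, 45.7 and 49.6 RPKM in caPI3Kalpha sham hearts, 46.0, 43.2 and 43.2 RPKM in WT TAC hearts and 49.6, 45.9, 49.9 and 49.1 RPKM in WT sham hearts. WT TAC hearts were the lowest group, at 44.1 ± 1.62 RPKM (SD, n = 3) against 48.6 ± 1.85 RPKM in WT sham hearts (SD, n = 4), and the groups touched at WT TAC 1 and WT sham 7. The log2 difference of -0.14 ± 0.09 missed the threshold (limma adjusted p = 0.327). After each library was centred on its median gene it was -0.33 (limma adjusted p = 0.0324), beside 0.0324 to 0.627 over 20 alternatives. The caPI3Kalpha TAC difference from caPI3Kalpha sham was 0.03 ± 0.12, with a 95% interval of -0.23 to 0.29.

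Gabarapl1, a GABARAP family member and described FoxO target, was higher in every TAC heart than in every sham heart. It was at 38.7 and 37.5 RPKM in caPI3Kalpha TAC hearts, 28.1 and 30.2 RPKM in caPI3Kalpha sham hearts, 36.8, 38.3 and 36.2 RPKM in WT TAC hearts and 34.1, 23.1, 32.3 and 30.2 RPKM in WT sham hearts. The averages were 38.1 ± 0.849 against 29.2 ± 1.48 RPKM in caPI3Kalpha hearts (SD, n = 2 each), and 37.1 ± 1.08 (SD, n = 3) against 29.9 ± 4.82 RPKM (SD, n = 4) in WT hearts. Neither difference passed the threshold: 0.38 ± 0.17 log2 in caPI3Kalpha hearts (limma adjusted p = 0.985) and 0.32 ± 0.13 in WT hearts (limma adjusted p = 0.123). With a term for library set the WT difference was 0.31 ± 0.11 and passed it (limma adjusted p = 0.0387, beside 0.0387 to 0.624 over 20 alternatives). It was 0.20 without WT sham 7, the lowest heart (limma adjusted p = 0.259), 0.22 after quantile normalization (limma adjusted p = 0.339), 0.13 after centring each library on its median gene (limma adjusted p = 0.574) and 0.11 in the first set alone (limma adjusted p = 0.624). The interaction was 0.06 ± 0.22, with a 95% interval of -0.42 to 0.54. Relative to WT TAC, the caPI3Kalpha TAC difference was 0.04 ± 0.16, with a 95% interval of -0.31 to 0.38, and -0.05 ± 0.15 with the term.

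Sqstm1 encodes p62, a receptor that binds ubiquitinated cargo and LC3 and is itself degraded by autophagy. It was at 153.5 and 168.6 RPKM in caPI3Kalpha TAC hearts, 87.1 and 115.0 RPKM in caPI3Kalpha sham hearts, 135.1, 126.1 and 124.9 RPKM in WT TAC hearts and 102.3, 72.7, 89.3 and 90.4 RPKM in WT sham hearts. Every TAC heart was above every sham heart, and the caPI3Kalpha TAC hearts were above the WT TAC hearts. In WT hearts Sqstm1 averaged 129 ± 5.57 RPKM after TAC (SD, n = 3) against 88.7 ± 12.2 RPKM after sham (SD, n = 4), a log2 difference of 0.54 ± 0.13 or 1.46-fold (limma adjusted p = 0.0198). The call held under 16 of 20 alternatives. It was lost when libraries were centred on their median gene (0.36, limma adjusted p = 0.0912), in the first set alone with its 1 library in each WT group (0.40, limma adjusted p = 0.327), without WT sham 7 (0.45, limma adjusted p = 0.0527) and without WT TAC 17 (0.56, limma adjusted p = 0.0640). It was kept without WT sham 15.
In caPI3Kalpha hearts Sqstm1 averaged 161 ± 10.7 RPKM after TAC against 101 ± 19.7 RPKM after sham (SD, n = 2 each). The log2 difference of 0.68 ± 0.18 did not pass the threshold (limma adjusted p = 0.382). Of all genes, 2.46% had a larger difference than Sqstm1 in either direction in that comparison. That share was 16.8% in WT TAC relative to WT sham and 52.3% in caPI3Kalpha TAC relative to WT TAC. With a term for library set the caPI3Kalpha TAC difference from caPI3Kalpha sham was 0.68 ± 0.14 and passed (limma adjusted p = 0.0408), within 0.0408 to 1.00 over 19 alternatives. All caPI3Kalpha libraries are in the first set, so here the term left the difference as it was and changed the spread alone. The interaction of genotype and operation was 0.14 ± 0.22, with a 95% interval of -0.35 to 0.62 (limma adjusted p = 0.906). The caPI3Kalpha TAC hearts differed from WT TAC hearts by 0.32 ± 0.16 (limma adjusted p = 0.182), and by 0.19 ± 0.15 with the term (limma adjusted p = 0.437). The 250 bases before the start of this called gene lie at chr11:50210821-50211070 on the minus strand of GRCm38.p6 (RefSeq), and held neither the FoxO core nor the hypoxia core nor CACGTG on either strand. They are shown so that the called gene can be set beside Trim63 and Bnip3.
Sqstm1: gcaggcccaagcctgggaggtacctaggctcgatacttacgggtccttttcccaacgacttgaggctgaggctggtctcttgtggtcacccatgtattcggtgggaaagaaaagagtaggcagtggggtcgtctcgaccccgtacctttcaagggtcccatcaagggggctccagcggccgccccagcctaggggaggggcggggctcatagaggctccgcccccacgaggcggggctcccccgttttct
The antioxidant core TGACNNNGC was searched as well, since NRF2 is a described regulator of Sqstm1. Within 250 bases of the start, these letters were in none of the 7 promoters and in 10.2% of all 32851. Bases farther upstream were not searched, so a site there would be missed.

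Whole ventricle holds other cells beside cardiomyocytes, so in these bulk samples fewer cells of a type and less RNA per cell cannot be told apart. The summed level of 12 macrophage markers was 125.3 to 151.8 RPKM in caPI3Kalpha TAC hearts and 115.7 to 180.0 RPKM in caPI3Kalpha sham hearts. It was 283.0 to 340.8 RPKM in WT TAC hearts and 126.3 to 145.6 RPKM in WT sham hearts. Of the 12, 11 were called higher in WT TAC relative to WT sham, where 16.5% of all genes were called. The summed level of 7 fibroblast markers was 390.6 to 420.9 RPKM in caPI3Kalpha TAC hearts and 284.2 to 326.9 RPKM in caPI3Kalpha sham hearts. It was 767.1 to 934.0 RPKM in WT TAC hearts and 302.4 to 391.4 RPKM in WT sham hearts. Of the 7, 5 were called higher in that comparison of WT hearts. The 8 cardiomyocyte markers summed to 17987.3 to 18829.2 RPKM in caPI3Kalpha TAC hearts, 16933.9 to 19674.4 RPKM in caPI3Kalpha sham hearts, 14522.3 to 16130.2 RPKM in WT TAC hearts and 18219.7 to 19969.7 RPKM in WT sham hearts. None of these markers was at 0 in any library. The part of cell composition in the Sqstm1 difference between WT TAC and WT sham was not tested.

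Of the 13 measured genes of LC3 and GABARAP conjugation, 6 did not overlap between the library sets (46.2%, beside 32.6% of all genes). The 3 described here, Map1lc3a, Gabarapl2 and Gabarap, were chosen after their values were seen. Map1lc3a, which encodes LC3A, was at 146.1 and 149.8 RPKM in caPI3Kalpha TAC hearts, 143.9 and 172.6 RPKM in caPI3Kalpha sham hearts, 133.1, 101.1 and 92.5 RPKM in WT TAC hearts and 167.0, 87.9, 92.2 and 92.0 RPKM in WT sham hearts. All 6 libraries of the first set were at 133.1 to 172.6 RPKM and all 5 of the second at 87.9 to 101.1 RPKM. Gabarapl2 was likewise higher in the first set, at 29.3 to 33.8 RPKM against 22.6 to 28.1 RPKM in the second. Gabarap went the other way, at 64.1 to 87.5 RPKM in the first set against 97.3 to 122.3 RPKM in the second. Bnip3l, the mitophagy receptor closest to Bnip3 and named here after its values were seen, was at 6.5 to 8.7 RPKM in the first set against 10.9 to 14.3 RPKM in the second. Map1lc3b and Gabarapl1 overlapped between the sets. How reads matching more than one of these related genes were counted is not given in the sources used here.

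**Figure D3:**
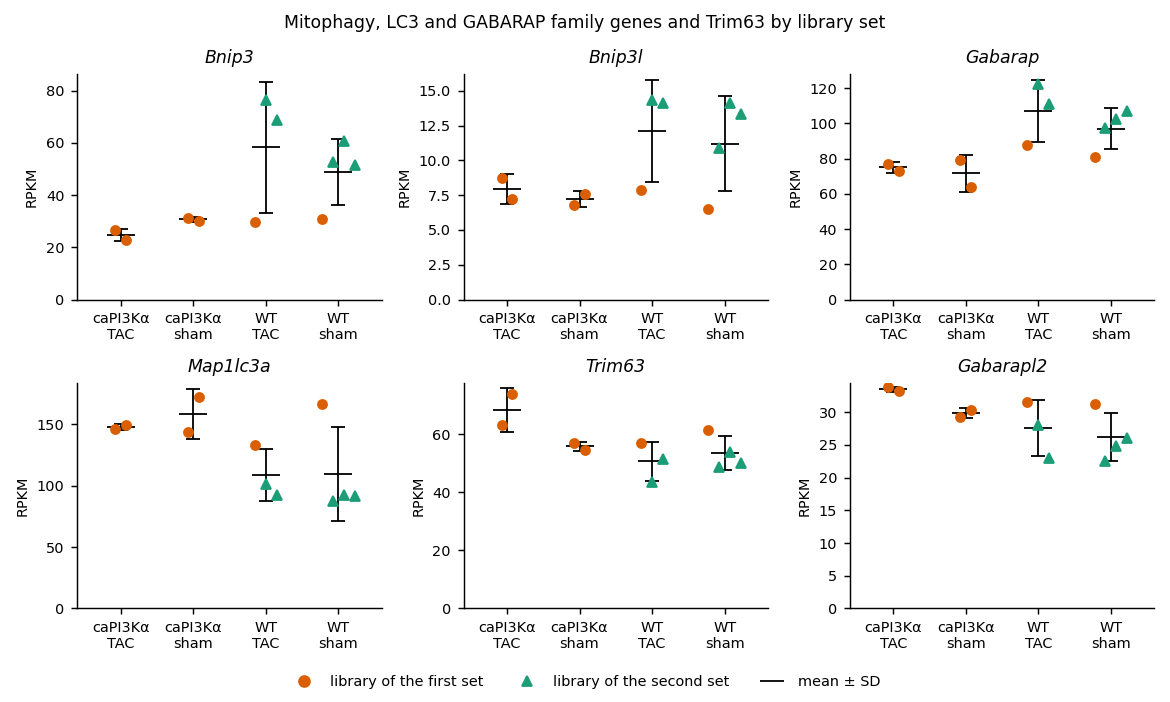
Levels (RPKM, linear axis from 0) of Bnip3, Bnip3l, Gabarap, Map1lc3a, Trim63 and Gabarapl2 in each heart by group, with hearts coloured by library set and bars for the group mean ± SD. In each panel WT TAC 1 and WT sham 6 (circles) lie on the side of the caPI3Kalpha hearts and do not overlap the second set, which for Bnip3 spans 51.5 to 76.4 RPKM. The genes were chosen for this plot after their values were seen.

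Around the 8 genes, 8 pathway lists with 124 measured genes were counted in the same test. In the counts of list genes, rose and fell mean called higher and called lower. In WT TAC relative to WT sham 8 of the 124 rose and 3 fell (8.87%, beside 16.5% of all genes), and 116 of the 124 are not among the 8 genes. After centring, which subtracts the median log2 value of each library, the split was 5 higher and 11 lower (12.9%, beside 13.0% of all genes). After quantile normalization the split was 5 and 5 (8.06%, beside 10.3%). With a term for library set it was 33 higher and 17 lower (40.3%, beside 42.1%). By list, the term gave 8 higher and 6 lower of 32 described FoxO targets, 5 and 4 of 22 ubiquitin ligase and ubiquitin genes, and 11 and 3 of 19 lysosome and fusion genes. It gave 5 and 1 of 21 autophagy initiation genes, 2 and 2 of 13 conjugation genes, 4 and 0 of 11 selective receptors and 0 and 1 of 10 mitophagy genes. In caPI3Kalpha TAC relative to WT TAC 2 rose and 5 fell (5.65%, beside 6.52%), 0 and 0 after quantile normalization (0.00%, beside 2.39%), 2 and 0 after centring (1.61%, beside 2.99%) and 2 and 5 with the term (5.65%, beside 9.00%). With all hearts and no set term, no pathway gene passed in the other 3 comparisons, in which 0.00% (caPI3Kalpha TAC relative to caPI3Kalpha sham), 0.0111% (caPI3Kalpha sham relative to WT sham) and 0.312% (interaction) of all genes were called. The term gave 1 higher selective receptor in caPI3Kalpha TAC relative to caPI3Kalpha sham. For the interaction it gave 1 higher and 1 lower FoxO target, 1 lower initiation gene and 1 lower lysosome gene. Shares of all genes with the term are not given for these comparisons.

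**Figure D4:**
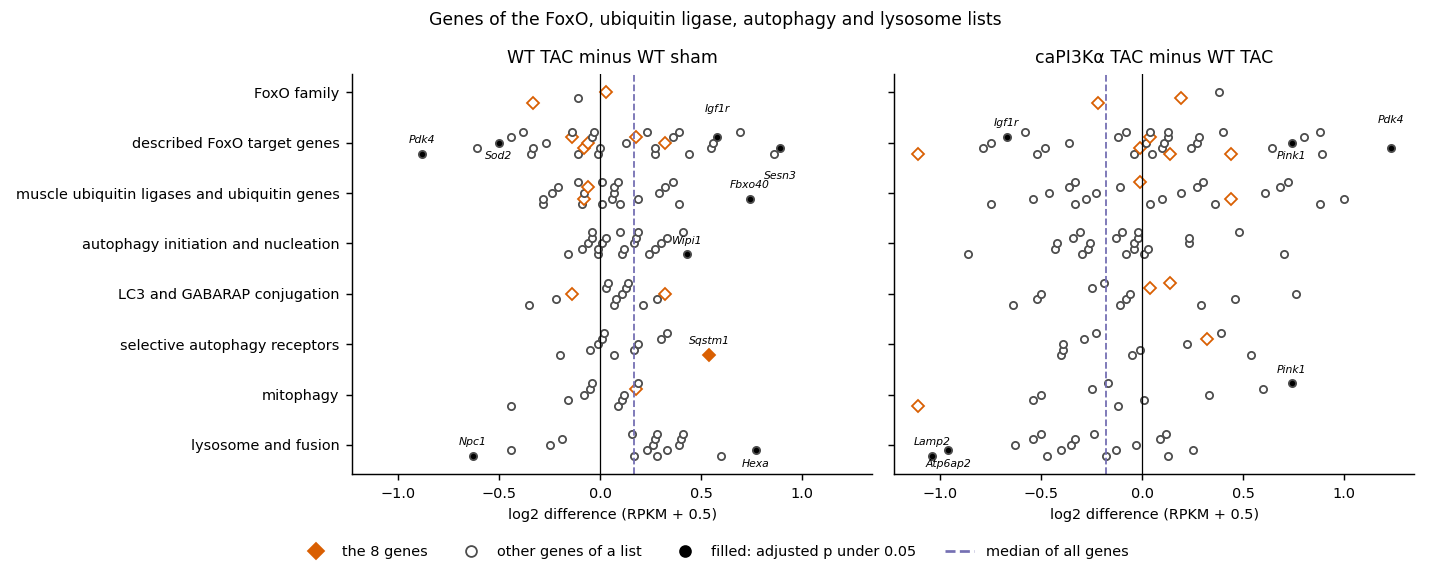
Difference on the log2(RPKM + 0.5) scale of the genes of 8 lists, for WT TAC minus WT sham and caPI3Kalpha TAC minus WT TAC. Each point is a gene, diamonds are the 8 genes described here, filled points have an adjusted p under 0.05 and are named, and the dashed line is the median of all genes (0.17 and -0.18). A gene in 2 lists is drawn in both, and genes not reported singly are not drawn.

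Of the FoxO family, 3 of 4 genes were in the table, and none was called in any comparison with all hearts and no set term. Foxo4, the third of them, was at 16.1 and 17.0 RPKM in caPI3Kalpha TAC hearts against 14.5, 11.6 and 11.8 RPKM in WT TAC hearts, a log2 difference of 0.38 ± 0.15 (limma adjusted p = 0.120). Among 32 described FoxO target genes, 2 rose and 2 fell in WT TAC relative to WT sham, where 16.5% of all genes were called, with a median of -0.01 beside 0.17 for all genes. The genes that rose were Igf1r, the IGF-1 receptor, at 4.03 ± 0.208 RPKM in WT TAC hearts against 2.52 ± 0.126 RPKM in WT sham hearts (SD, n = 3 and 4; log2 0.58, limma adjusted p = 0.00868), and Sesn3, a stress sestrin that restrains mTORC1 (log2 0.89, limma adjusted p = 0.0290). Igf1r reached the 3 RPKM required for listing in WT TAC hearts only, with at most 2.7 RPKM in WT sham and 2.6 RPKM in caPI3Kalpha hearts. Its listing thus rests on the group where it was high. Sesn3 was at 3.1 to 3.8 RPKM in WT TAC hearts, at most 3.0 RPKM in caPI3Kalpha sham hearts and at most 2.0 RPKM in WT sham hearts. Of the 27 targets with a mean of at least 3 RPKM, 0 rose and 1 fell (3.70%, beside 15.3% of all such genes). Sod2, the mitochondrial superoxide dismutase, fell to 67.6 ± 4.20 RPKM in WT TAC hearts, against 95.8 ± 5.42 RPKM in WT sham hearts (SD, n = 3 and 4; log2 -0.50, limma adjusted p = 0.00676). In caPI3Kalpha TAC relative to WT TAC 2 of the 32 rose, Pdk4 and Pink1, and 1 fell, Igf1r, at 2.35 ± 0.212 RPKM in caPI3Kalpha TAC hearts against 4.03 ± 0.208 RPKM in WT TAC hearts (SD, n = 2 and 3; log2 -0.67, limma adjusted p = 0.0294, held in 10 of 18 alternatives). Of the 27 targets with a mean of at least 3 RPKM, 0 were called there, beside 5.65% of all such genes. In WT TAC relative to WT sham the call on Sod2 held in 19 of 20 alternatives, that on Igf1r in 17 of 19 and that on Sesn3 in 12 of 19. Igf1r and Sesn3 averaged under 3 RPKM, so the alternative with that minimum mean leaves them out and is not counted for them. The count for Igf1r thus rests on the same WT TAC hearts that put it in the list.

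Pdk4, the kinase that turns off pyruvate dehydrogenase, fell in WT TAC relative to WT sham and rose in caPI3Kalpha TAC relative to WT TAC. It was at 94.6 and 156.5 RPKM in caPI3Kalpha TAC hearts, 52.1 and 70.0 RPKM in caPI3Kalpha sham hearts, 53.5, 49.9 and 51.4 RPKM in WT TAC hearts and 63.9, 140.2, 75.3 and 123.0 RPKM in WT sham hearts. The log2 difference was -0.88 ± 0.27 in WT TAC relative to WT sham (limma adjusted p = 0.0470) and 1.23 ± 0.32 in caPI3Kalpha TAC relative to WT TAC (limma adjusted p = 0.0477). These calls held in 8 of 20 and 6 of 19 alternatives. The interaction, 1.89 ± 0.44, did not pass (limma adjusted p = 0.128), and with a term for library set it was 1.86 ± 0.39 (limma adjusted p = 0.0230).

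Of 22 muscle ubiquitin ligase and ubiquitin genes, 1 rose and 0 fell in WT TAC relative to WT sham. This was Fbxo40, a muscle F-box protein described to target IRS1, at 65.0, 65.8 and 65.6 RPKM in WT TAC hearts against 48.0, 38.5, 35.0 and 36.2 RPKM in WT sham hearts. The log2 difference was 0.74 ± 0.12 (limma adjusted p = 0.00254), and the call held in 19 of 20 alternatives. In caPI3Kalpha hearts Fbxo40 was at 65.7 and 69.1 RPKM after TAC against 46.3 and 49.7 RPKM after sham, a difference of 0.49 ± 0.15 that did not pass (limma adjusted p = 0.610), and the interaction was -0.25 ± 0.19 (limma adjusted p = 0.740). All 5 TAC hearts were above all 6 sham hearts, while Fbxo32 and Trim63, also in the list, overlapped between WT TAC and WT sham.

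The autophagy lists are set beside 16.5% of all genes called in WT TAC relative to WT sham, and their counts with a term for library set are given above. Of 21 initiation and nucleation genes 1 rose and 0 fell in WT TAC relative to WT sham: Wipi1, which binds the lipid of the forming autophagosome, at 41.2, 38.7 and 34.7 RPKM in WT TAC hearts against 30.4, 27.9, 27.0 and 27.8 RPKM in WT sham hearts (log2 0.43 ± 0.10, limma adjusted p = 0.0182, held in 14 of 20 alternatives). It stood at 46.0 and 43.3 RPKM in caPI3Kalpha TAC hearts against 31.9 and 35.5 RPKM in caPI3Kalpha sham hearts (log2 0.40 ± 0.13, limma adjusted p = 0.672). Of 13 conjugation genes 0 were called in any comparison without the term. Of 11 selective receptors Sqstm1 was the 1 called, and of 10 mitophagy genes 0 were called in WT TAC relative to WT sham. Pink1, the kinase that marks damaged mitochondria, rose in caPI3Kalpha TAC relative to WT TAC, at 165.4 and 196.3 RPKM in caPI3Kalpha TAC hearts against 131.1, 103.8 and 91.2 RPKM in WT TAC hearts (log2 0.74 ± 0.20, limma adjusted p = 0.0490). That call held in 4 of 19 alternatives, and with a term for library set the difference was 0.44 ± 0.13 (limma adjusted p = 0.0539).

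Lysosome genes were called in both directions. Of 19 lysosome and fusion genes, 3 rose and 1 fell in WT TAC relative to WT sham, or 21.1% beside 16.5% of all genes, with a median of 0.28 beside 0.17 for all genes. Hexa, which encodes a subunit of a lysosomal hexosaminidase, rose to 22.6, 23.1 and 19.2 RPKM in WT TAC hearts, against 12.5, 10.8, 14.4 and 12.4 RPKM in WT sham hearts (log2 0.77 ± 0.12, limma adjusted p = 0.00246). Npc1, which exports cholesterol from the lysosome, fell to 10.0, 10.5 and 10.1 RPKM in WT TAC hearts, against 16.2, 15.8, 15.0 and 17.3 RPKM in WT sham hearts (log2 -0.63 ± 0.10, limma adjusted p = 0.00262). The calls on Hexa and Npc1 each held in 19 of 20 alternatives, the exception being the first library set alone, with its 1 library in each WT group. The macrophage marker sums given above were higher in the same WT TAC hearts, and their part in these lysosome results was not tested.

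Of the 19 lysosome genes, 4 fell and 0 rose in caPI3Kalpha TAC relative to WT TAC, or 21.1% beside 6.52% of all genes, with a median of -0.35 beside -0.18 for all genes. After quantile normalization and after centring 0 of the 19 were called, beside 2.39% and 2.99% of all genes, and with a term for library set 4 fell, beside 9.00%. Lamp2, the lysosome membrane protein, averaged 35.0 ± 0.707 RPKM in caPI3Kalpha TAC hearts (SD, n = 2) against 74.6 ± 19.8 RPKM in WT TAC hearts (SD, n = 3; log2 -1.04 ± 0.27, limma adjusted p = 0.0482), and -0.54 ± 0.11 with a term for library set (limma adjusted p = 0.0158). It did not overlap between the sets, at 31.5 to 51.9 RPKM in the first and 56.2 to 88.4 RPKM in the second. Atp6ap2, an accessory subunit of the proton pump, was at 4.2 and 5.0 RPKM in caPI3Kalpha TAC hearts against 7.1, 11.0 and 10.6 RPKM in WT TAC hearts (log2 -0.96 ± 0.21, limma adjusted p = 0.0329). The call on Lamp2 held in 5 of 19 alternatives and that on Atp6ap2 in 8 of 19, and neither held after quantile normalization or centring.

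The genes most like each of the 8 in their pattern over the 11 libraries were those with the smallest root mean square difference of centred log2 values. They were Apbb2 and Exd2 for Foxo1 (0.077 and 0.084), Nt5c1a and AI464131 for Foxo3 (0.16 each), Slc43a3 and Pdcd2 for Fbxo32 (0.15 each), and Kdm4a and Pus1 for Trim63 (0.10 each). Rpl7 and Fam36a were closest to Bnip3 (0.15 each), Dirc2 and Tpm1 to Map1lc3b (0.056 and 0.059), Sorl1 and Srfbp1 to Gabarapl1 (0.094 and 0.095), and Mapt and Nuak1 to Sqstm1 (0.11 and 0.13). Among the 8 genes themselves the closest pairs were Trim63 with Map1lc3b (0.17) and Gabarapl1 with Sqstm1 and Foxo1 with Map1lc3b (0.20 each), and the farthest was Foxo3 with Bnip3 (0.87). These are distances over shared libraries, given as a description.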

How the data were processed

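Per the file headers, the authors deposited RPKM for genes reaching at least 3 RPKM in a library, printed to 1 decimal. The submitters' processing notes list CASAVA 1.6, Partek 6.5, Bowtie and the build mm9 without saying what each did. How reads were mapped is not stated there. Of 9251 lines, 261 blank, 1 error and 2 repeat lines were removed, which left 8987 genes, and 0 columns matched no sample. The title of WT sham 15 was followed, although its source name carries another number.

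The members and lists were chosen with earlier results of these data known. Values were tested as log2(RPKM + 0.5), which understates changes of low genes, with limma 3.58.1 (R 4.3.3; lmFit, eBayes with trend), all 11 libraries, 1 mean per group, Benjamini-Hochberg over all genes. Named were the 8 genes, Pik3ca, up to 4 genes per list with the smallest p in WT TAC relative to WT sham and up to 2 in each other comparison, and the 2 nearest in pattern. The code was tested on simulated data. Alternatives were pseudocounts of 0.1 and 1, a mean of at least 3 RPKM, quantile normalization, centring, library set, the groups compared alone and each heart left out. Promoters are RefSeq's, GRCm38.p6. Figures used matplotlib 3.10.9. Some genes of the lists are counted but not reported singly here.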

Additional observations from a re-analysis of the deposited data

Results flagged for a closer look

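Of 8 sets of 4 WT sham values tested for a lone heart, 1 for each gene, 1 stood out, where chance gives about 1 in 20. Foxo1 in WT sham 6 was at 5.2 RPKM, below the other WT sham hearts at 6.6 to 6.8 RPKM, and its gap to the nearest of them was 0.875 of the range of the group. WT sham 6 is the WT sham heart of the first library set. The caPI3Kalpha sham hearts, of the same set, were at 4.7 and 5.2 RPKM, and WT TAC 1, also of that set, at 6.5 RPKM. The cause was not tested.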

How the results depend on the processing

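No paired analysis was possible because the animal numbers of the mRNA groups compared are not shared. The 1 of the 8 genes called in WT TAC relative to WT sham became 3 with a term for library set (Sqstm1, Gabarapl1, Foxo3), beside 42.1% of all genes. It became 3 in the second set alone (Sqstm1, Foxo3, Bnip3) and 0 to 2 with single hearts left out. The count stayed 1 after centring, beside 13.0% of all genes, but that gene was Map1lc3b, lower, in place of Sqstm1. The 0 called in caPI3Kalpha TAC relative to caPI3Kalpha sham became 1 with the set term (Sqstm1), which changes the spread alone there. Where no share of all genes is given beside a count, the count is not read as an excess. With single hearts left out, the 0 of caPI3Kalpha sham relative to WT sham ran from 0 to 1 and the 0 of caPI3Kalpha TAC relative to WT TAC from 0 to 2. The interaction was called for none of the 8 in its alternatives. In the first set alone, a setting chosen after seeing the data, 0 of all 8987 genes were called for it, with 1 library in each WT group, so that setting says nothing of the 8. The causes were not tested, and with few hearts and unknown depth a miss of the threshold does not show equal levels.

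Changes of sign concerned log2 differences not called with all hearts and no set term. That of Bnip3 in WT hearts was called in the second set alone. In WT TAC relative to WT sham, Foxo1 was -0.18 after quantile normalization, -0.16 after centring and -0.06 in the second set, Bnip3 -0.01 after centring and -0.06 in the first set, and Fbxo32 0.52 in the first set. In caPI3Kalpha sham relative to WT sham, Map1lc3b was 0.01 after quantile normalization, Foxo3 0.00, Trim63 -0.14 and Bnip3 0.15 with the set term, and Fbxo32 0.14, Trim63 -0.14 and Sqstm1 -0.03 in the first set. For caPI3Kalpha TAC relative to WT TAC, Fbxo32 was 0.08 after quantile normalization, 0.15 after centring and 0.13 with the set term, Foxo3 -0.23 with the set term and -0.35 in the first set, and Gabarapl1 -0.05 with the set term. The interaction in the first set was -0.17 for Foxo1 and -0.29 for Fbxo32.

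Leaving out single hearts gave, in WT TAC relative to WT sham, -0.06 to 0.07 for Foxo1, -0.07 to 0.60 for Bnip3, -0.21 to 0.09 for Fbxo32 and -0.17 to 0.02 for Trim63. In caPI3Kalpha sham relative to WT sham it gave -0.14 to 0.04 for Gabarapl1, -0.09 to 0.03 for Map1lc3b and -0.02 to 0.38 for Sqstm1. For caPI3Kalpha TAC relative to caPI3Kalpha sham it gave -0.05 to 0.49 for Fbxo32 and -0.03 to 0.08 for Map1lc3b, and relative to WT TAC -0.16 to 0.07 for Fbxo32. The interaction ran from -0.01 to 0.18 for Gabarapl1, -0.06 to 0.34 for Sqstm1, -0.56 to 0.01 for Foxo3 and -0.01 to 0.21 for Foxo1. Of all genes, 1481 were called in WT TAC relative to WT sham (1225 higher), 925 after quantile normalization (486 higher), 1171 after centring (561 higher) and 3785 with the set term. Between caPI3Kalpha TAC and WT TAC 586 were called (67 higher), 215 after quantile normalization (72 higher) and 269 after centring (130 higher). Of 1090 single-gene values under alternatives 915 kept direction and call, 121 lost the call, 12 gained it and 42 changed sign.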
